A study of Homo sapiens with 9 samples.

Results

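Heat shock proteins of the cytosol and mitochondria were examined in Huh-7, a cell line from a human hepatoma, through 10 genes: HSPA1A, HSPA1B, HSPA8, HSPH1, DNAJB1, BAG3, HSP90AA1, HSPB1, HSPD1 and HSPE1. The genes were taken by symbol from a gene-level table of 18153 genes, and all 10 were found. Every culture carried a stable lentiviral short hairpin RNA (shRNA): against GFP as the control (shGFP), against NDRG3 (shNDRG3) or against HIF1A (shHIF1A), which encodes the oxygen-regulated subunit of HIF-1. Cells were in normoxia or in hypoxia, which was 1% oxygen, for 6, 12 or 24 h. Of the 9 Illumina arrays, 6 share one platform. They are a normoxic shGFP array that serves both early times, hypoxic shGFP arrays at 6 h and 12 h, hypoxic shNDRG3 arrays at the same times, and a hypoxic shHIF1A array at 12 h. A second platform holds the 3 arrays of the 24 h series, which are normoxic shGFP, hypoxic shGFP and hypoxic shNDRG3 cells. Each condition has 1 array, knockdown cells were profiled in hypoxia alone, and the number of hairpins or clones per line is not given in the sources used here.

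HSP70 proteins bind exposed hydrophobic stretches of unfolded proteins in a cycle driven by ATP. J-domain proteins such as DNAJB1 deliver clients and start ATP hydrolysis, and nucleotide exchange factors such as HSPH1 and BAG3 reset the cycle. HSPA1A and HSPA1B encode the stress-inducible HSP70, and HSPA8 encodes its constitutive relative. HSP90AA1 encodes the inducible cytosolic HSP90, HSPB1 a small heat shock protein that holds unfolded clients, and HSPD1 and HSPE1 the mitochondrial chaperonin and its lid. Heat shock factor 1 (HSF1) drives many of these genes through heat shock elements, inverted repeats of GAA and TTC.

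The promoters of 5 members are shown because they hold such repeats and because the members' responses to hypoxia, given further on, ranged from the lowest differences of all genes to small ones. Sequences are the 250 bases before the annotated start, 5′ to 3′ on the gene's strand, from RefSeq on GRCh38.p14, and capitals mark a GAA and a TTC, in either order, with any 2 bases between them. This pair reads the same on both strands, and neighbouring pairs can overlap by 3 bases.
HSPA1A, chr6:31815293-31815542, plus strand: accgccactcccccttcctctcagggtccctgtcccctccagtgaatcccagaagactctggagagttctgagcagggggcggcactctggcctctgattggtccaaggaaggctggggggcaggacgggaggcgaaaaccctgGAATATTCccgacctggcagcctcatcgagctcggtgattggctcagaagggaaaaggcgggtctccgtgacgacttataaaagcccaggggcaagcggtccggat
HSPA1B, chr6:31827488-31827737, plus strand: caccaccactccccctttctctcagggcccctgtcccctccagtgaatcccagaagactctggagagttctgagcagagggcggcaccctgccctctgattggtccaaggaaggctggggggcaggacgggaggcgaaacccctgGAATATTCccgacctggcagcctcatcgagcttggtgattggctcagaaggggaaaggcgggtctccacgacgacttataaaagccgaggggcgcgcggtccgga
HSPA8, chr11:123062137-123062386, minus strand: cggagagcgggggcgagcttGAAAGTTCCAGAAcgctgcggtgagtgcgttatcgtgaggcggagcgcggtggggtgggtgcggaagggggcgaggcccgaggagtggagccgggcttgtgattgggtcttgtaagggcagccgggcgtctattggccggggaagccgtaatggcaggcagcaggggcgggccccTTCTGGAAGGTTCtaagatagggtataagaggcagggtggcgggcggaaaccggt
DNAJB1, chr19:14518398-14518647, minus strand: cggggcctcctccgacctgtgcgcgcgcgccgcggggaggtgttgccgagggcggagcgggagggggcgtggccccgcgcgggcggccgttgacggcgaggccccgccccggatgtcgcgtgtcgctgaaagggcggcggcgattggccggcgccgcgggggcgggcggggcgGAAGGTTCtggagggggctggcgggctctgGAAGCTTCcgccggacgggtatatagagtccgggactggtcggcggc
HSP90AA1, chr14:102087045-102087294, minus strand: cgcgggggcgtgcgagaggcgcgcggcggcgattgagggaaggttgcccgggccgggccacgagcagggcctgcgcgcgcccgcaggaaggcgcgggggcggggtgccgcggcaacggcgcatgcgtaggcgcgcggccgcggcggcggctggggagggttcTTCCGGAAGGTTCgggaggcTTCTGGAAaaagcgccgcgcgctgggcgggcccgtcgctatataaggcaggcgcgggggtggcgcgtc

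The members had 14 promoter windows of 300 bases in the RefSeq table, since DNAJB1, HSP90AA1 and HSPD1 have several annotated starts. The pair stood in 8 of the 14 windows and in at least 1 window of 7 of 10 genes, against 13.5% of all 35116 windows and 16.2% of all 27305 genes. A run of 3 such units in alternating order, each 2 bases from the next, stood in windows of HSPA8, HSP90AA1 and HSPD1, against 0.608% of all genes. HSPA1A and HSPA1B share a GAATATTC at 106 and 105 bases before their starts, a TATAAA at 30 and 29 bases before them, and 93.6% of 251 aligned positions. No pair was in the windows of HSPH1, BAG3 and HSPE1, which says only that these letters are not there. ACGTG or CACGT, the core of a hypoxia response element, was found in windows of HSPD1 and HSPE1, head-to-head neighbours on chromosome 2, and in 24.9% of all genes. Their windows overlap, and both matches are 1 and the same site. A match is a description of the sequence and not a bound site.

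The arrays bore out the labels in part. NDRG3 intensity was 268, 215 and 233 in shNDRG3 cells at 6, 12 and 24 h against 1278, 1456 and 1712 in shGFP cells, and HIF1A intensity was 231 in shHIF1A cells against 897. The hypoxia-inducible genes CA9 and ADM, for a carbonic anhydrase and a vasoactive peptide, were higher in hypoxia at each time in shGFP cells, by log2 differences of 2.55 to 3.88. Hepatocyte markers were near background: 1 to 4 of 17 lay over the filter value on any array, with ALB between 160 and 229 and AFP between 98 and 187, so the hepatoma label was not borne out by these probes. For other cell types, 7 to 9 of 15 marker genes exceeded it, where 10813 to 10979 of all 18153 genes did. Median intensity was 169 to 173 on the first platform and 270 to 276 on the second. Differences are of log2(intensity + 32), each between arrays of the same platform.

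The first comparison asked how these chaperone genes responded to low oxygen in control cells. The inducible HSP70 genes HSPA1A and HSPA1B fell. The other members apart from HSPE1 were lower at each time without passing the test: HSPA8, HSPH1 and DNAJB1 by at least 2-fold at 12 h and 24 h, and BAG3, HSP90AA1, HSPB1 and HSPD1 by less than 2-fold at every time. A limma fit over the 5 shGFP arrays, with platform as a block and 1 hypoxia term, called 2 of the 10 members, both lower. Over all 12774 genes it called 0.0548% lower and 0.384% higher. At an unadjusted p under 0.05 were 6 of 10 members and 19.4% of all genes. In this fit the times stand in for replicates, so its p-values rest on how much the times of 1 line vary. HSPA1A and HSPA1B had the lowest and next lowest estimates of all 12774 genes.

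**Figure D1:**
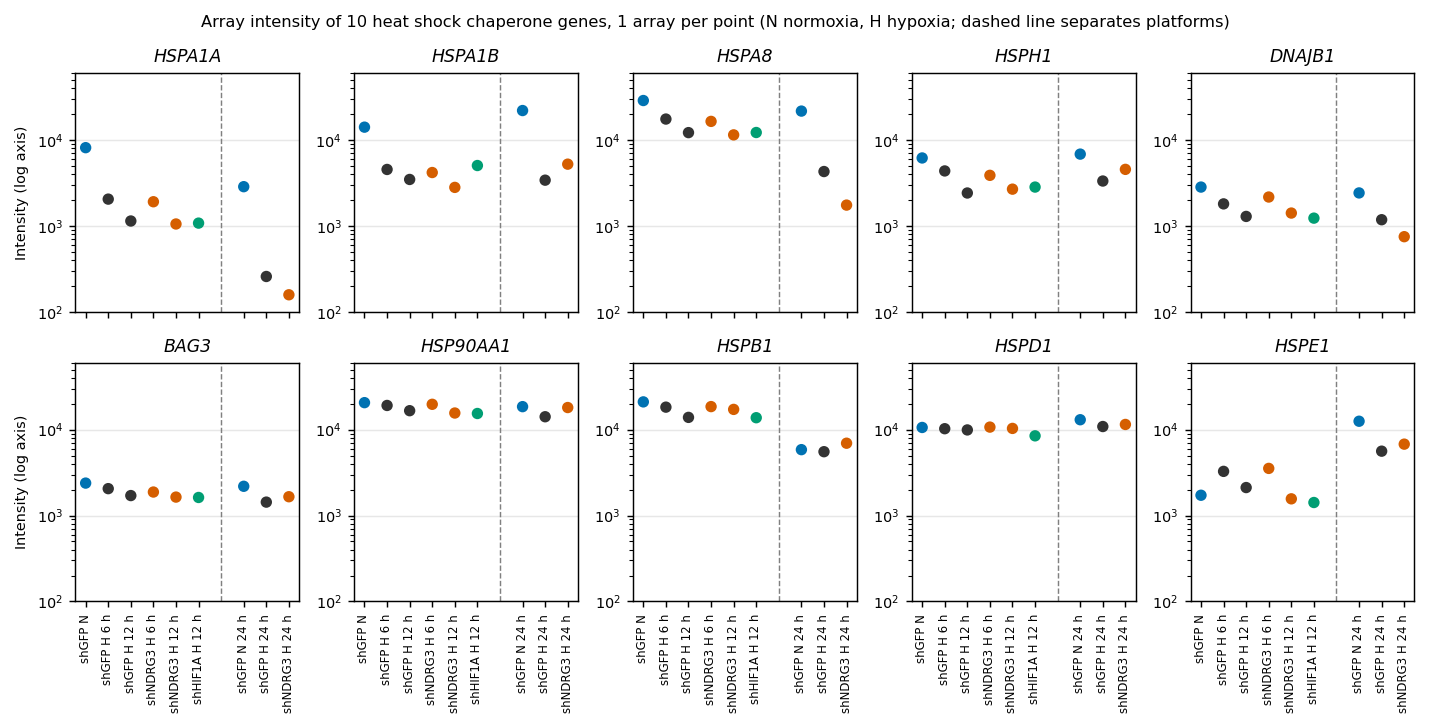
Intensity (log axis) of each of the 10 genes on each of the 9 arrays, 1 point per array, with the dashed line between platforms; blue is shGFP normoxia, black shGFP hypoxia, orange shNDRG3 hypoxia and green shHIF1A hypoxia. HSPA1A, HSPA1B, HSPA8, HSPH1, DNAJB1, BAG3 and HSP90AA1 were highest in normoxia on both platforms, and HSPD1 spanned 8477 to 10715 on the first.

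HSPA1A intensity was 8157 in normoxia, 2053 after 6 h and 1142 after 12 h of hypoxia on the first platform, and 2866 in normoxia and 258 after 24 h on the second. Every hypoxic array was thus below its normoxia array, by log2 differences of -1.97, -2.80 and -3.32 (3.97-fold, 7.14-fold and 11.1-fold). The difference at 6 h ranked 2 from the lowest of 11348 genes, and those at 12 h and 24 h were the lowest of 11420 and of 11635. In the model HSPA1A fell by 2.79 (SE 0.29, limma adjusted p = 0.0147), and in bulk RNA fewer expressing cells and less RNA per cell cannot be told apart. The 24 h intensity of 258 lay near the second platform's filter value of 210.2, where an unsubtracted background shrinks a difference.

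HSPA1B intensity was 14135 in normoxia, 4548 after 6 h and 3478 after 12 h, and on the second platform 22069 in normoxia and 3412 after 24 h. The differences of -1.63, -2.01 and -2.68 ranked 3, 4 and 4 from the lowest of all genes measured. HSPA1B fell by 2.19 (SE 0.22; limma adjusted p = 0.0138), lower at 3 of 3 times. These genes encode nearly the same transcript and each rests on 1 probe, so their probes may not tell them apart. The probes did not read alike in every comparison. For shNDRG3 against shGFP at 24 h the differences were -0.61 for HSPA1A, near the filter value, and 0.61 for HSPA1B. Which transcripts each probe reads was not tested. Both calls ended with no filter on dim genes (limma adjusted p = 0.142 for HSPA1A and 0.135 for HSPA1B) and with the pseudocount raised 4-fold (0.0854 for both), while over all alternatives their estimates stayed within -3.20 to -2.39 and -2.35 to -1.82.

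HSPA8, the constitutive HSP70, had intensities of 28867 in normoxia, 17565 at 6 h and 12210 at 12 h, and of 21747 in normoxia and 4301 at 24 h. Its differences were -0.72, -1.24 and -2.33, so the 24 h array was 5.06-fold below its normoxia array. HSPA8 did not pass the test (estimate -1.56, SE 0.31, limma adjusted p = 0.107), and it passed without the 6 h array (adjusted p = 0.00748) and with the 60th percentile filter (0.0367). Its value is the mean of the same 2 probes on both platforms, and they moved alike: at 24 h one differed by -2.26 and the other by -2.41.

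The partners of HSP70 were lower as well. HSPH1, an HSP110 exchange factor, had 6189 in normoxia, 4371 at 6 h and 2419 at 12 h, and 6862 in normoxia against 3335 at 24 h. DNAJB1 had 2836 in normoxia, 1807 at 6 h and 1291 at 12 h, and 2424 in normoxia against 1182 at 24 h. BAG3 had 2388, 2058 and 1709 on the first platform, and 2192 against 1434 on the second. For HSPH1 and DNAJB1 the differences at 12 h and 24 h were past 2-fold (-1.34 and -1.03 for HSPH1, -1.12 and -1.02 for DNAJB1), and for BAG3 they were -0.48 and -0.60. None of these 3 genes passed (limma adjusted p = 0.132, 0.0879 and 0.177). Without the 6 h array HSPH1 and DNAJB1 passed (0.00812 and 0.00944), in a fit with 1 residual degree of freedom that called 949 genes in place of 56.

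HSP90AA1, HSPB1 and HSPD1 varied by less than 2-fold within each platform. HSP90AA1 had 20637 in normoxia, 19141 at 6 h and 16636 at 12 h, and 18542 against 14145 on the second platform, and its largest difference was -0.39. Its value averages 3 matched probes, and the 2 bright ones did not move alike on the first platform. At 6 h and 12 h the brightest differed by 0.08 and -0.15 and the other by -0.40 and -0.56. HSPB1 had 21068, 18295 and 13904, and 5854 against 5541, with differences of -0.20, -0.60 and -0.08. HSPD1 had 10611, 10263 and 9931, and 13056 against 10880, with differences of -0.05, -0.10 and -0.26. None passed (limma adjusted p = 0.30, 0.432 and 0.554).

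HSPE1, the lid of the chaperonin that HSPD1 forms, differed in direction from its partner at 6 h and 12 h. Both were lower at 24 h, and across the 9 arrays, each gene centred within platform, the pair had r = 0.69. Its intensity was 1724 in normoxia, 3270 at 6 h and 2119 at 12 h, and on the second platform 12539 in normoxia and 5620 at 24 h. The hypoxic arrays were thus above normoxia at 6 h and 12 h (0.91 and 0.29) and below it at 24 h (-1.15). The model's estimate was -0.15 (SE 0.38; limma adjusted p = 0.862). The first platform's value is 1 probe and the second's the mean of that probe and 1 more; the shared probe had 5920 in normoxia and 3072 at 24 h (-0.94), the other 19157 and 8167 (-1.23).

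**Figure D2:**
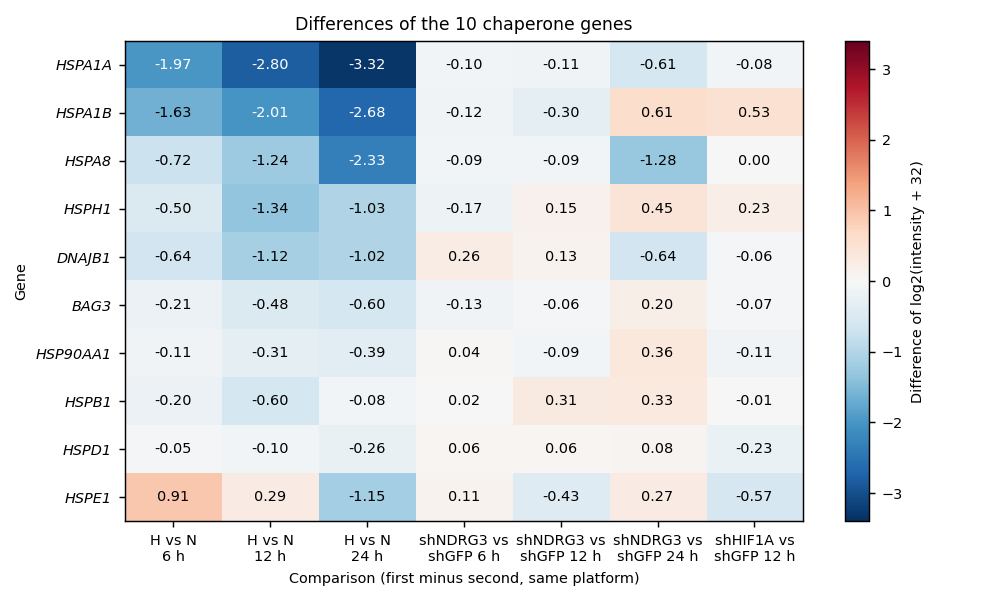
Differences of log2(intensity + 32) for the 10 genes (rows) in the 7 comparisons (columns), H being hypoxia and N normoxia, with blue for lower and red for higher. The darkest cell is HSPA1A at 24 h of hypoxia, -3.32, and in the knockdown columns HSPA8 in shNDRG3 cells at 24 h, -1.28, is the 1 value past 2-fold.

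In counts, 2 of 10 members were at least 2-fold lower at 6 h, where 0.0529% of all genes were. At 12 h 5 of 10 were, against 1.53% of all genes, and at 24 h 6 of 10, against 1.95%. No member was at least 2-fold higher at any time, against 0.899%, 2.49% and 2.69% of all genes. In the order of the times, the members' median difference was -0.36, -0.86 and -1.03, beside -0.02, -0.01 and -0.03 over all genes. All but HSPE1 were lower at all 3 times, as were 31.2% of 10264 genes; the 6 h and 12 h differences share their normoxia array. All 10 estimates of the model were below 0, as were 52.5% of all, but that of HSPE1 was 0.60 without the 24 h arrays. The members were chosen with results of these data known, so these counts describe them and are no test.

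No gene of the 8 other chaperone and heat shock lists passed the hypoxia term, and the medians at 24 h ranged from -0.61 to 0.10. Among other HSP70s, HSP110s and exchange factors, 1 of 11 measured was at least 2-fold lower at 12 h, HSPA4, an HSP110 (2464 against 1050, -1.21), and 1 at 24 h, HSPA14 (2792 against 1076, -1.35); 0 were higher. Among HSP90AB1 and HSP90 co-chaperones, AHSA1, an activator of the HSP90 ATPase (4559 against 1838, -1.30), and STIP1, which links HSP70 to HSP90 (6656 against 3143, -1.07), were at least 2-fold lower at 24 h, 2 of 12. Of 10 measured cytosolic J-protein genes, 2 were at least 2-fold lower at 24 h, DNAJA4 (-1.41) and DNAJA1 (17784 against 7667, -1.21; named after its value was seen), and 1 was higher, DNAJB2 (0.84, 1.42 and 1.41 at the 3 times; limma adjusted p = 0.0605). Of 3 small heat shock protein genes over the filter, HSPB8 was at -0.81 and -1.63 at 6 h and 12 h and at 0.12 at 24 h, and HSPB3 at -0.53 at 24 h.

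The cytosolic chaperonin TRiC and prefoldin had 1 of 14 genes at least 2-fold lower at 24 h, PFDN6 (-1.11), with CCT4 at -0.96. Among 14 mitochondrial chaperones and proteases, LONP1, a matrix protease, was 2-fold higher at 12 h (1983 in normoxia against 4427, 1.15), and TRAP1, the mitochondrial HSP90, was at -0.76 at 24 h. Relatives in the endoplasmic reticulum went both ways: HSPA5, its HSP70, was at -1.03 and DNAJB9, a J-protein among several there, at 0.99 at 24 h. Of 16 heat shock factors and other reported HSF1 targets, 0 were 2-fold lower at any time. At least 2-fold higher were 1 at 6 h (HMOX1), 2 at 12 h (HMOX1 and PPP1R15A) and 3 at 24 h (ATF3, PPP1R15A and RGS2), PPP1R15A and RGS2 being named after their values were seen. HMOX1, for heme oxygenase, was at 2.28, 3.27 and -0.23 and ATF3, a stress transcription factor, at 0.19, 0.70 and 2.81.

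**Figure D3:**
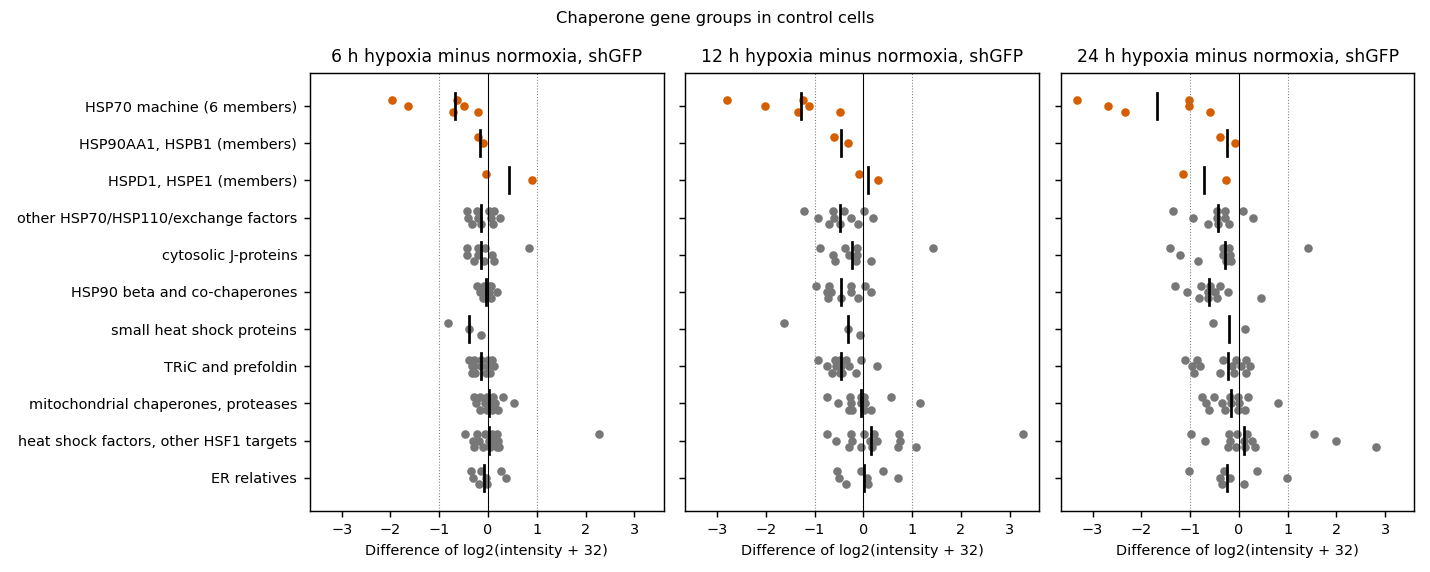
Differences of log2(intensity + 32) between hypoxia and normoxia in shGFP cells for the members (orange) and the other chaperone lists (grey), 1 point per gene over the filter, with black bars at list medians and dotted lines at 2-fold. At 24 h the 6 genes of the HSP70 machine had a median of -1.68 and a lowest value of -3.32. At the same time the medians of the grey lists lay between -0.61 and 0.10, and their lowest value was -1.41.

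Across the 9 arrays, with each gene centred within its platform, the profile of HSPA1A correlated with those of DNAJB1 (r = 0.95), HSPA8 (0.94), HSPA1B (0.93), BAG3 (0.91) and HSPH1 (0.85), and less with HSPD1 (0.65), HSP90AA1 (0.63), HSPE1 (0.46) and HSPB1 (0.34). Among the other genes over the filter on both platforms, of 10948 in all, FGFBP1 (0.993), UTP14A (0.989), ZNF684, CCDC51 and TOMM22 (0.987 each) were most like HSPA1A, with 24 h hypoxia differences from -1.04 to -0.55. Most like HSPD1 were GTF2I (0.975), ITFG1 (0.965), SNORD33 (0.963) and HEATR3 (0.96). These points share arrays and 1 normalization per platform.

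The second comparison asked whether NDRG3 depletion changed these genes in hypoxic cells. At 6 h and 12 h the shNDRG3 arrays lay close to the shGFP arrays, and 0 of 10 members were 2-fold apart, where 0.0706% and 0.106% of all genes were lower and 0.0441% and 0.0618% higher. HSPA1A was at 1914 against 2053 at 6 h and at 1054 against 1142 at 12 h, and HSPA8 at 16500 against 17565 and 11494 against 12210. All these were below the normoxia array's 8157 and 28867. The members' differences ran from -0.17 to 0.26 at 6 h and from -0.43 (HSPE1) to 0.31 (HSPB1) at 12 h.

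At 24 h the members' differences ran from -1.28 to 0.61. More of all genes were at least 2-fold apart there than at 6 h or 12 h. HSPA8 was at 1749 in shNDRG3 cells against 4301 in shGFP cells, a difference of -1.28, with -1.41 and -1.15 for its 2 probes; it was the 1 member at least 2-fold apart, where 2.57% of all genes were lower and 0.673% higher. DNAJB1 (750 against 1182, -0.64) and HSPA1A (158 against 258, -0.61) were lower too, the last being below the filter value on the shNDRG3 array. HSPA1B lay the other way (5242 against 3412, 0.61), as did HSPH1 (4559 against 3335, 0.45), HSP90AA1 (18103 against 14145, 0.36) and HSPB1 (6956 against 5541, 0.33). HSPD1 and BAG3 differed by 0.08 and 0.20. HSPE1 differed by 0.27, from -0.09 at the shared probe and 0.39 at the other. The median was 0.24, beside 0.04 over all genes. For 24 h, time cannot be told apart from platform. HIF1A was lower on this shNDRG3 array too (331 against 572). Of 10 measured hypoxia-inducible check genes, 1 was at least 2-fold lower, CA9 (518 against 4600), with ADM at 9481 against 11247 and a list median of -0.21. Of the markers of other cell types, 3 of 9 measured were at least 2-fold lower on the same shNDRG3 array, and 0 were at least 2-fold higher. The 3 were KRT7 (173 against 1396), KRT19 (223 against 2186) and CD68 (572 against 1439), while ACTA2 was at 1977 against 1514. The summed intensity of all 15 was 5260 against 8997 in shGFP cells. The part of these values in the differences was not tested.

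A limma fit to the 9 arrays took 1 term for each knockdown beside the control means. Here too the times stand in for replicates, so the NDRG3 p-values rest on how much the difference varied among times. A difference at 1 time alone, as for HSPA8 at 24 h, widens its standard error, so a gene not called may still differ at that time. For NDRG3 0 of 10 members passed, and 0.00755% of 13237 genes were called lower and 0% higher. At an unadjusted p under 0.05 were 0 members and 8.53% of all genes, and 4 of 10 members had estimates below 0, as had 47.3% of all. The lowest estimates were those of HSPA8 (-0.49, SE 0.25, adjusted p = 0.616) and HSPA1A (-0.27, SE 0.13, adjusted p = 0.615), and the highest that of HSPB1 (0.22, SE 0.10, adjusted p = 0.614). No member passed under any of the 10 alternatives, among them the fit without the 24 h arrays, which called 318 genes higher and 328 lower.

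The third comparison asked whether they differed when HIF1A was depleted, at 12 h of hypoxia, and rests on 1 shHIF1A array. HSPA1A, HSPA8 and DNAJB1 were about as low as in hypoxic control cells, and HSPA1B was less so. HSPA1A was at 1079 against 1142, HSPA8 at 12247 against 12210 and DNAJB1 at 1233 against 1291, differences of -0.08, 0.00 and -0.06. The normoxia array had 8157, 28867 and 2836. Of 12 hypoxia-inducible check genes, 4 were at least 2-fold lower on the same shHIF1A array, with a list median of -0.26. CA9 was at 4556 against 14246 (-1.64) and ADM at 35364 against 34202 (0.05). HSPA1B was higher (5053 against 3478, 0.53), and HSPE1 (1419 against 2119, -0.57) and HSPD1 (8477 against 9931, -0.23) were lower. No member was 2-fold apart, where 0.534% of all genes were higher and 0.605% lower.

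In the 9-array limma fit 0 members passed for HIF1A, with 0 at an unadjusted p under 0.05, and 0 of 13237 genes did, with 1433 (10.8%) at an unadjusted p under 0.05. The shHIF1A array has its own term, so the spread behind these p-values comes from the shNDRG3 and shGFP arrays. HIF1A itself, the targeted gene, was not called (estimate -2.03), so 0 calls do not show that the members were unchanged. The HIF1A term is not shHIF1A against shGFP alone. Its 12 h mean is fitted to the shNDRG3 array as well, through an NDRG3 term shared by all times. For HSPA1B the estimate was 0.72 and the direct difference 0.53, for HSPA8 -0.20 and 0.00, and for HSPE1 -0.36 and -0.57. Estimates were below 0 for 8 of 10 members and 48.4% of all genes. The estimates with the smallest p were 0.72 for HSPA1B (SE 0.29, adjusted p = 0.467) and -0.22 for HSPD1 (SE 0.13, adjusted p = 0.661). Without the 24 h arrays the estimates were 0.58 for HSPA1B and -0.43 for HSPE1, in a fit with 1 residual degree of freedom.

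**Figure D4:**
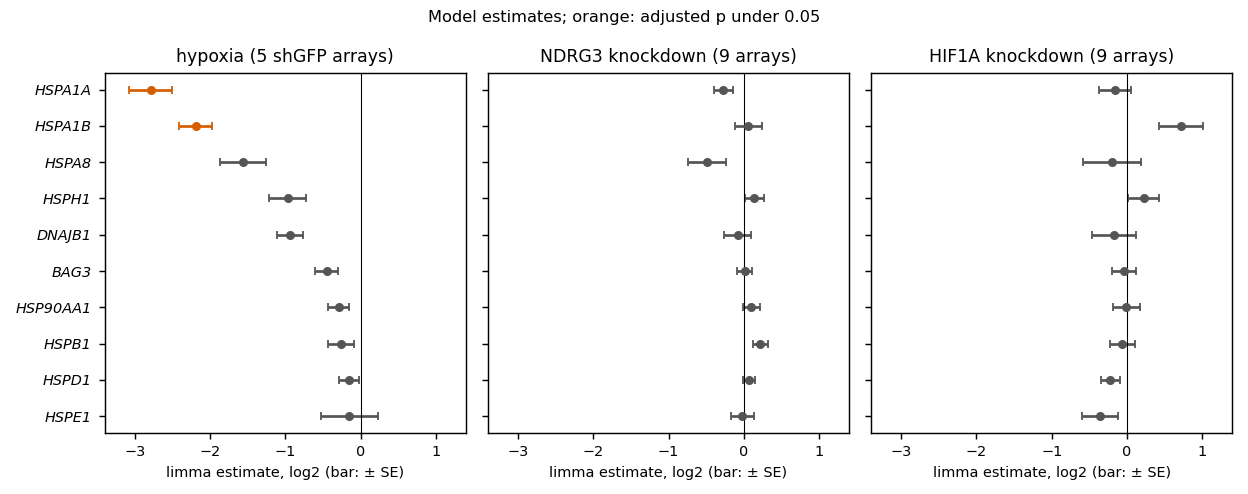
limma estimates on the log2 scale with standard errors for the 10 genes, from the hypoxia term over 5 shGFP arrays and the NDRG3 and HIF1A terms over 9 arrays, orange where the adjusted p was under 0.05. HSPA1A (-2.79) and HSPA1B (-2.19) are orange for hypoxia, and no gene is for either knockdown.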

How the data were processed

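Total RNA (200 ng) was amplified and labelled with biotin for Illumina arrays, per the labels' protocols; scanner software and normalization are not stated there. The authors deposited probe tables of 29377 and 48803 probes and a gene-level table, all as linear intensity. After sorting, probe values deviated between arrays by at most 0.0269 and 0.00399 (log2) on the platforms, so they appear quantile normalized. The lowest were 58 and 104.7, so a background remains in them, which shrinks differences of dim genes. No file used here pairs probes with genes: a member's value was matched to the probe, or mean of probes, that equals it on every array of a platform (tolerance 0.0002 of its highest value, at least 0.02). By this match 6 members rest on the same single probe on both platforms. HSPA8 averages 2 probes, HSP90AA1 averages 3 and HSPD1 averages 3 and 4, dim ones included, and HSPE1 rests on 1 and 2. On the first platform 4 sets of probes met the tolerance for HSP90AA1 and 2 for HSPD1, and the closest was taken, so these matches are not unique.

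Genes entered a comparison if they reached the 40th percentile of the platform's values (127.3 or 210.2) on at least 1 array. limma 3.58.1 (R 4.3.3, lmFit and eBayes, two-sided, Benjamini-Hochberg over all genes tested, threshold 0.05) left 2 residual degrees of freedom in both fits, was tested on simulated data, and assumes that the lone shHIF1A array varies like the others. "Rose" and "fell" are used for limma calls. Direct comparisons carry no test. The members and lists were chosen with earlier results of these data known. Genes named besides the members are those past the test in each list and the 2 with the largest difference in any comparison. For likeness, the 5 genes most correlated with HSPA1A and with HSPD1 were taken, of which 1 is not reported here. List genes not used here are HSPA6, HSPA13, BAG2, DNAJC2, HSPB11 and EPCAM. Promoters were searched with Python 3.11.15 and aligned with Biopython 1.88.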

Additional observations from a re-analysis of the deposited data

Results flagged for a closer look

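HSPE1 differed from normoxia in opposite directions at different times of hypoxia in shGFP cells, by 0.91 at 6 h and 0.29 at 12 h on the first platform and by -1.15 at 24 h on the second. The difference between times was not tested, since each rests on 1 array a condition. The shared probe alone had -0.94 at 24 h. The normoxia arrays differ between the times, and time and platform cannot be told apart.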

How the results depend on the processing

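The hypoxia term called 2 members in the main setting, 0 with no filter, 0 with the pseudocount raised 4-fold, 4 with the 60th percentile filter (HSPA8 and DNAJB1 besides HSPA1A and HSPA1B) and 5 without the 6 h arrays. For the HIF1A term, which rests on 1 shHIF1A array, the count of members called also rose without the 24 h arrays. The count over all genes rose with it, in a fit with 1 residual degree of freedom. The rise thus says nothing particular to the members. Without the 12 h arrays the HIF1A term cannot be fitted. Members at least 1.5-fold apart in either direction numbered 5 in place of 2 at 6 h of hypoxia, with HSPE1 higher. For shNDRG3 cells at 24 h they numbered 4 in place of 1, with HSPA1B higher. A lower threshold can only raise a count. With background subtracted, 2 members were at least 2-fold apart in shNDRG3 cells at 24 h. The share of all genes was taken for neither alternative, so these counts say nothing particular to the members. Background subtraction put HSPA1A at -1.58 in place of -0.61 in shNDRG3 cells at 24 h, and at -4.20 in place of -3.32 for 24 h of hypoxia. With the brightest shared probe, an alternative added after seeing the data, HSP90AA1 was at 0.08 in place of -0.11 at 6 h of hypoxia and HSPE1 at -0.09 in place of 0.27 in shNDRG3 cells at 24 h. The hypoxia estimate of HSPE1, never called, was 0.60 without the 24 h arrays in place of -0.15. No called difference changed sign. In the other 126 cases a count or median over the members stayed within 1.5 times or 0.1 of its value. Some of these could not change: every member passed the main filter in each direct comparison, so those counts and medians were the same with no filter. The causes of the changes were not tested. Over all genes the hypoxia term called 49 higher and 7 lower, against 3 and 0 with no filter, 7 and 0 with the pseudocount raised 4-fold, 109 and 39 with the 60th percentile filter, 79 and 17 with a pseudocount of 1, 76 and 12 with background subtracted, 479 and 470 leaving out the 6 h arrays, 82 and 12 without the 12 h arrays and 85 and 5 without the 24 h arrays. No paired analysis was possible because replicate numbers pair no arrays, with 1 array per condition; the 9-array fit already sets each shNDRG3 array against the shGFP array of its time.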

Other observations

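A probe in the closest of 2 matching sets for the HSPD1 value on the first platform, and in the set found on the second, read between 335 and 688 on the 6 arrays of the first and 25184, 23555 and 22159 on the 3 arrays of the second, while another HSPD1 probe read 24963 to 31327 and 19403 to 26295. The platforms were normalized separately, so these levels are set side by side only. At the dim reading the first probe differed by -0.31 and -0.52 at 6 h and 12 h of hypoxia, against -0.04 and -0.09 for the bright one.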
